A study of Mus musculus with 22 samples.

Results

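Slc8a2, Ncald, Lyz1, Emilin1, Arsi, Gcsam and 2310031A07Rik are 7 of the 34047 genes in the count table of a study of mouse dendritic cells (DCs), and little has been written about most of them in these cells. They were selected on the RNA counts of these very libraries, for wide differences between DC subsets, so their RNA values are given as a description and not tested. Accessibility of the DNA at their loci was measured in other libraries of the same subsets and was tested. The study compared 3 subsets: cDC1s, sorted as XCR1+ CD11b– cells, and XCR1– CD11b+ cDC2s split by a red fluorescent protein into T-bet+ cDC2s (RFP+) and T-bet– cDC2s (RFP–). All cells came from Tbx21RFP-Cre mice, in which the fluorescent protein marks cells that express Tbx21, the gene of the transcription factor T-bet, and all subsets carried the reporter. The mice were naive males and females, 6 to 10 weeks old, and each RNA library pooled cells of 2 mice. RNA-seq covered 3 libraries of each subset from spleen, and from mesenteric lymph node (MLN) 3 of cDC1s, 2 of T-bet+ cDC2s and 2 of T-bet– cDC2s. ATAC-seq, which counts where a transposase can reach the DNA, covered 2 spleen libraries of each subset from 50000 sorted cells.

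Conventional DCs take up antigen and present it to T cells. cDC1s are known for cross-presentation of antigen to CD8 T cells, and cDC2s for presentation to CD4 T cells. The 7 genes have different roles. Slc8a2 encodes the sodium-calcium exchanger NCX2, which moves calcium out across the cell membrane and is best known from neurons. Ncald encodes neurocalcin delta, a calcium sensor that attaches to membranes when it binds calcium. Lyz1 encodes P lysozyme, an enzyme that cuts bacterial cell walls and is known from Paneth cells of the gut, and its neighbour Lyz2 encodes the M lysozyme of myeloid cells. Emilin1 encodes a glycoprotein of elastic fibres, and Arsi encodes arylsulfatase I, a member of the sulfatase family. Gcsam encodes a signalling protein of germinal centre B cells that restrains cell motility. 2310031A07Rik is annotated as a long intergenic non-coding RNA.

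The 16 RNA libraries held between 20993220 and 29006549 reads in genes, and the 6 ATAC libraries between 7270164 and 10081555 reads in windows. The sort held in the spleen RNA: Tbx21 was at 21.5 ± 3.96 CPM (reads scaled to a common library total, mean ± SD, n = 3) in spleen T-bet+ cDC2s, against 1.38 ± 1.04 for the T-bet– subset and 0.753 ± 0.549 for cDC1s. In MLN, Tbx21 was lower, at 7.12 and 3.02 CPM in T-bet+ cDC2s, the lower in replicate 2. MLN T-bet– cDC2s held 0.540 and 0.929 CPM of it, and MLN cDC1s 0.246 to 0.392. The other checks are given for spleen. Xcr1, the cDC1 chemokine receptor, was at 964 ± 222 CPM in spleen cDC1s against 6.06 ± 1.43 and 9.91 ± 2.83 CPM for T-bet+ and T-bet– cDC2s. Sirpa, a cDC2 surface protein, was at 888 ± 91.1 and 1011 ± 574 CPM in T-bet+ and T-bet– cDC2s against 7.07 ± 2.22 in cDC1s. Among the MLN libraries, 2 stood apart. T-bet+ cDC2 replicate 2 held 35.0 CPM of Xcr1 against 5.14 in replicate 1. Its summed level of 7 cDC1 markers was 459 CPM against 160, though between the 365 and 643 CPM of the MLN T-bet– libraries. Its stromal markers came to 71.6 CPM against 0.745, and those of MLN cDC1 replicate 2 to 52.4 CPM against 5.29 and 12.6 in the other 2 cDC1 libraries, mostly Col3a1 and Dcn in the T-bet+ library. MLN cDC1 replicate 2 also held 17.02 CPM of neutrophil markers against 0.410 and 0. MLN log2 fold changes of the 7 genes in T-bet+ cDC2s are given below with and without their replicate 2, while for Slc8a2 the level of each library is given. Leaving out cDC1 replicate 2 moved the MLN log2 fold changes of the same genes over cDC1s by at most 0.37, with none given for Slc8a2 in T-bet– cDC2s, and reversed none. In these bulk libraries, fewer cells with a gene's RNA and less of that RNA in each cell cannot be told apart.

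In spleen, Slc8a2 and Ncald were high in T-bet+ cDC2s, Lyz1, Emilin1 and Arsi in T-bet– cDC2s, and Gcsam and 2310031A07Rik in cDC1s. The 2 groups' libraries did not overlap for 6 of the 7 genes between T-bet+ and T-bet– cDC2s, for 7 of 7 between T-bet+ cDC2s and cDC1s and for 5 of 7 between T-bet– cDC2s and cDC1s, where 27.0%, 39.4% and 29.4% of all tested genes did not overlap. In MLN the counts were 5, 5 and 4 of 7, against 41.1%, 40.5% and 39.8% of all tested genes. As the genes were chosen for such differences, nothing is read from these counts. All 7 genes passed the filter on low counts in both tissues.

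**Figure D1:**
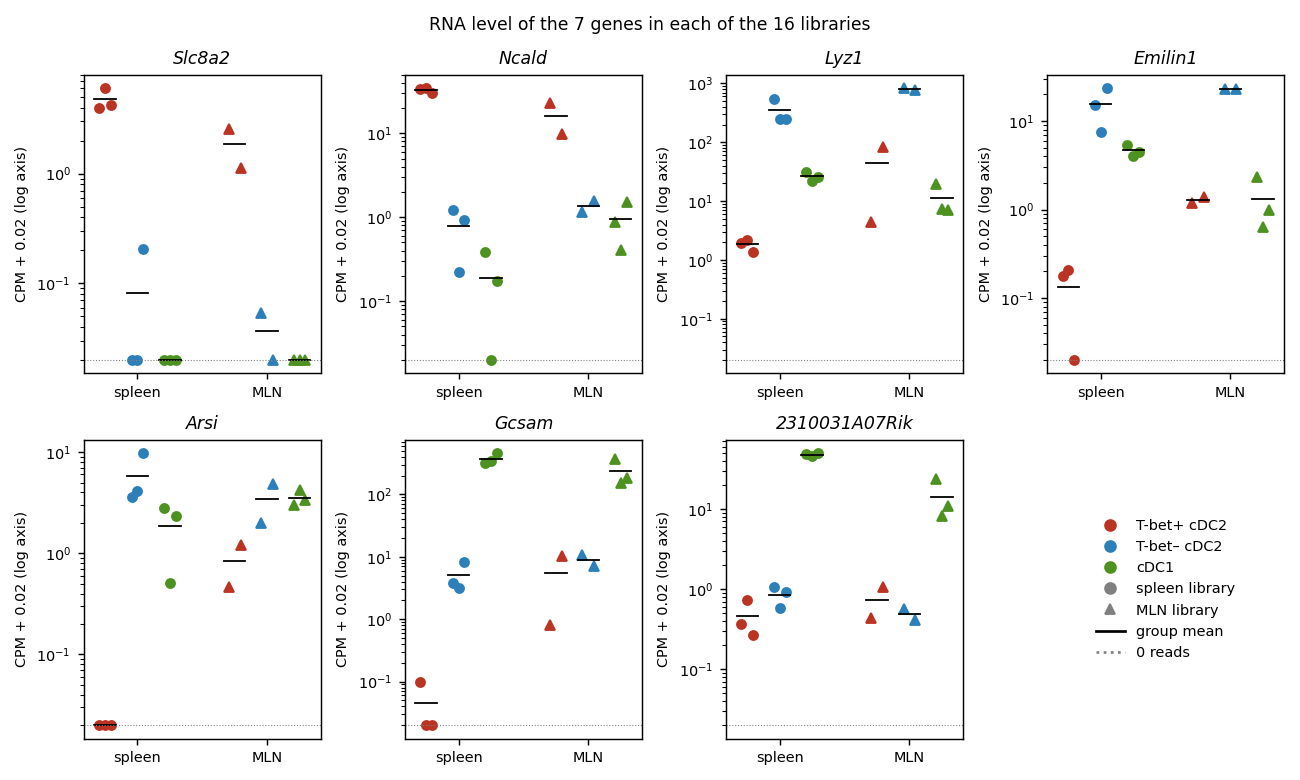
RNA level of the 7 genes in each of the 16 libraries, in CPM plus 0.02 on a log axis, by tissue (circles spleen, triangles MLN) and subset (colour), with group means as black lines and the level of 0 reads as a dotted line. The genes were chosen on these libraries for wide subset differences, so nothing is read from the gap between the highest spleen subset and the others. MLN T-bet+ cDC2 replicate 2 lies above replicate 1 for Lyz1 (83.8 against 4.40 CPM) and Gcsam (10.2 against 0.783 CPM).

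At the 7 loci, 64 of the 177956 windows of 150 bases around ATAC-seq summits had one of these genes as their closest gene within 50000 bases, and 63 were deep enough to test. Of the 63, 10 windows passed the test between T-bet+ and T-bet– cDC2s (edgeR quasi-likelihood test, adjusted p under 0.01 and log2 fold change beyond 0.5), 8 more open and 2 less open in T-bet+ cDC2s, which is 15.9% against 6.28% of all windows tested (3.92% more open, 2.36% less open). Between T-bet+ cDC2s and cDC1s 22 windows passed, 6 more open and 16 less open in T-bet+ cDC2s (34.9% against 23.0% of all windows, 11.0% more and 12.0% less open). Between T-bet– cDC2s and cDC1s 18 passed, 2 more open and 16 less open in T-bet– cDC2s (28.6% against 17.9%, 7.32% more and 10.6% less open). Counted over whole ATAC-seq peaks, the share for T-bet– cDC2s and cDC1s was 28.9% against 30.6% of all peaks. The median log2 fold changes of the 63 windows in these comparisons were 0.17, -0.31 and -0.56, beside -0.01, -0.00 and 0.01 over all windows. Windows of 1 locus can overlap or share reads, and they were unevenly spread: 28 lay at Ncald, 13 at Gcsam, 9 at Arsi, 5 each at Lyz1 and 2310031A07Rik, 4 at Slc8a2 and 0 at Emilin1.

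**Figure D2:**
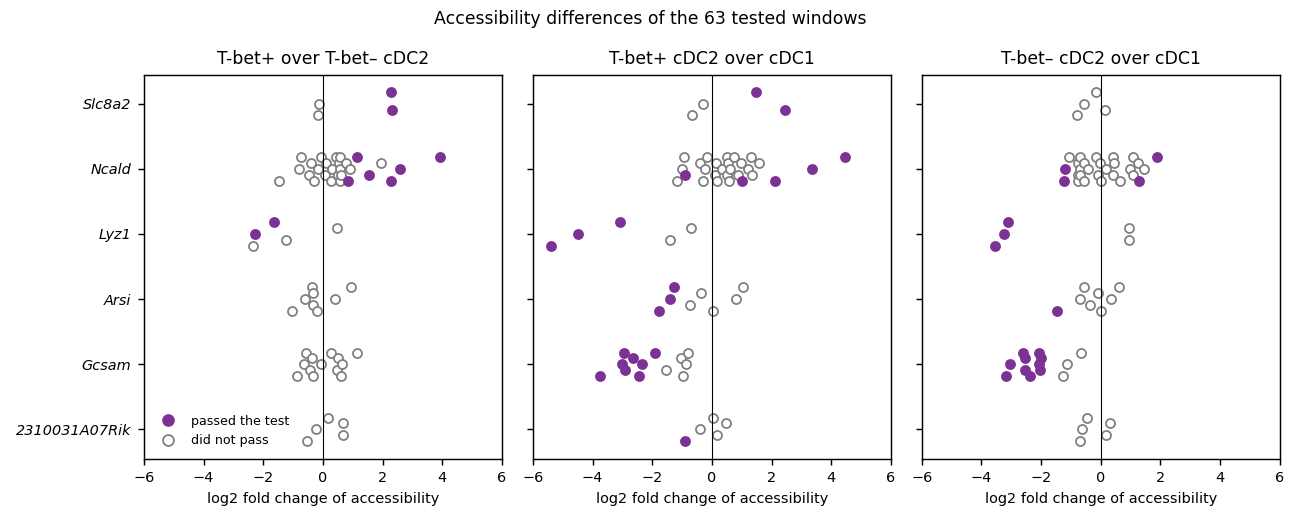
Log2 fold change of accessibility of the 63 tested windows (each point is 1 window) in 3 comparisons of spleen subsets, by locus, with windows that passed the test filled in purple and the others open. The called windows of Slc8a2 lie right of 0 in both comparisons of T-bet+ cDC2s, the called windows of Gcsam lie left of 0 in both comparisons with cDC1s, and no window of Gcsam or Arsi passed between the cDC2 subsets.

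Slc8a2 (ENSMUSG00000030376.8) lies on the plus strand of chromosome 7 at chr7:16129826-16161063 in GRCm38, the build of the files. In spleen T-bet+ cDC2s it was at 3.99, 6.00 and 4.21 CPM in the 3 libraries. In T-bet– cDC2s 2 libraries held 0 reads and the third 5 reads (0.187 CPM), and all 3 cDC1 libraries held 0. The T-bet+ cDC2 libraries thus stood alone, far above the others. Summed over libraries, 365 reads in T-bet+ against 5 in T-bet– cDC2s made a 64.5-fold difference (95% exact interval 27.4 to 199.9, counting error only), and against cDC1s, taken at the limit of 3 counts over the group, Slc8a2 was at least 110-fold higher. MLN gave the same order at a lower level. The MLN T-bet+ cDC2 libraries held 2.53 and 1.11 CPM, 1 of the T-bet– libraries held 1 read (0.0338 CPM) and the other 0, and the 3 cDC1 libraries held 0. Against cDC1s the gene was at least 46.2-fold higher in MLN T-bet+ cDC2s, and against T-bet– cDC2s the ratio was 102 with an interval of 17.9 to 4084.

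At Slc8a2, 2 of 4 windows were more open in T-bet+ cDC2s. One lay inside the gene, 2470 bases after its first base and 1874 from the nearest annotated start. Its accessibility was 11.9 and 11.4 CPM in the T-bet+ libraries, 2.32 and 2.41 in T-bet– cDC2s and 3.76 and 4.51 in cDC1s. Both T-bet+ libraries were above all others, by a log2 fold change of 2.29 ± 0.31 (SE) over T-bet– cDC2s (adjusted p = 7.96e-08) and 1.49 ± 0.29 over cDC1s (adjusted p = 3.05e-05). The second lay in untranslated sequence of an exon near the 3′ end, 31043 bases after the first base, at 5.41 and 4.14 CPM against 1.47 and 0.501 in T-bet– cDC2s and 1.06 and 0.644 in cDC1s. Its log2 fold changes were 2.31 ± 0.45 (adjusted p = 0.000127) and 2.45 ± 0.47 (adjusted p = 1.78e-05), and the first of these was lost with DESeq2 and without T-bet– cDC2 replicate 2 (highest adjusted p 0.0300). The windows 17846 and 17993 bases into the gene passed in no comparison. The first window is shown because its accessibility moved with the subset in which the RNA was found:
Slc8a2 window, chr7:16132222-16132371, plus strand: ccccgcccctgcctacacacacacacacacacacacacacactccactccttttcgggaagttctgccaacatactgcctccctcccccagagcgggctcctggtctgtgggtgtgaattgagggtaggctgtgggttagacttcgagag
It holds none of 5 short motifs searched on both strands, namely AGGTGTG (T-box factors), TGTGGTT (Runx), GAGGAAG (PU.1), TTGCNNAA (C/EBP) and TGANTCA (AP-1). These occur in 3.59%, 5.23%, 13.2%, 5.90% and 7.90% of all 177956 windows and in 1, 5, 14, 5 and 7 of the 64 windows at the 7 loci. A match here is a run of letters and no measured binding.

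Ncald (ENSMUSG00000051359.15) spans chr15:37366175-37792570 on the minus strand. Its RNA stood at 33.4, 34.4 and 29.8 CPM in spleen T-bet+ cDC2s. T-bet– cDC2s held 1.18, 0.202 and 0.896 CPM and cDC1s 0.360, 0 and 0.152. The 3 T-bet+ libraries were close together and far above the rest, while T-bet– cDC2s and cDC1s overlapped. The log2 fold change was 5.39 ± 0.77 over T-bet– cDC2s and 7.54 ± 0.88 over cDC1s. In MLN, T-bet+ cDC2s held 22.6 and 9.69 CPM, T-bet– cDC2s 1.15 and 1.55, and cDC1s 0.861, 0.392 and 1.51. The order was kept with smaller differences, of 3.56 ± 0.70 over T-bet– cDC2s (4.08 without T-bet+ replicate 2) and 4.14 ± 0.61 over cDC1s (4.65 without it) on the log2 scale. Per length, Ncald stood above Slc8a2 in spleen T-bet+ cDC2s, with 3.79 ± 0.285 RPKM, which is CPM per kilobase of exon, against 0.900 ± 0.210 (SD, n = 3). Exons of Ncald share 347 bases with Gm28221 on the opposite strand and 286 with Gm49397 on its own strand, together a small share of its 8581 exon bases.

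The widest accessibility differences at Ncald lay around internal starts of transcription. GENCODE places transcript starts of Ncald at 37792570, the outermost, and also between 37458541 and 37459360, far inside the gene. A window there, beginning at base 37458550, held 15.8 and 15.0 CPM in T-bet+ cDC2s against 2.32 and 2.71 in T-bet– cDC2s and 0.471 and 0.902 in cDC1s. The libraries fell in 3 separate steps, with log2 fold changes of 2.60 ± 0.30 for T-bet+ over T-bet– cDC2s (adjusted p = 1.03e-09), 4.47 ± 0.39 for T-bet+ cDC2s over cDC1s (adjusted p = 1.27e-15) and 1.87 ± 0.48 for T-bet– cDC2s over cDC1s (adjusted p = 0.00183). The last call was lost with DESeq2, without cDC1 replicate 1 and without T-bet– cDC2 replicate 2 (highest adjusted p 0.0695). A second window, 332392 bases from the outermost start, held 9.52 and 10.8 CPM in T-bet+ cDC2s and between 0.602 and 1.18 in the other 4 libraries, with a log2 fold change of 3.91 ± 0.41 over T-bet– cDC2s (adjusted p = 4.53e-11) and 3.35 ± 0.40 over cDC1s (adjusted p = 1.13e-10). The calls of this window and both T-bet+ calls of the first were kept in 12 of 12 alternative fits. Both windows also have Gm49397 as a closest gene, so they cannot be given to Ncald alone. Their sequences are shown because they had the largest accessibility fold changes between the cDC2 subsets among the 63 windows:
Ncald window at the internal starts, chr15:37458550-37458699, plus strand: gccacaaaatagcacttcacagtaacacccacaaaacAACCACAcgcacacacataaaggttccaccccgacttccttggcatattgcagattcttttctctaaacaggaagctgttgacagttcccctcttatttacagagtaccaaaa
Ncald window next to it, chr15:37460104-37460253, plus strand: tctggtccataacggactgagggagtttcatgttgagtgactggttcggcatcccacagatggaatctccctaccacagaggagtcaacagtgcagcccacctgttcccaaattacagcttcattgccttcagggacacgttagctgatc
Capitals mark AACCACA, the reverse complement of the Runx letters TGTGGTT, and no searched motif was found in the second.

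The other Ncald windows showed smaller differences. A shallow window between these, 332665 bases from the outermost start, was at 2.16 and 2.69 CPM in T-bet+ cDC2s and 0.122 and 0.802 in T-bet– cDC2s (log2 fold change 2.28 ± 0.59, adjusted p = 0.00468). Introns held 3 further windows more open in T-bet+ than T-bet– cDC2s, at log2 fold changes of 1.15 ± 0.28, 1.55 ± 0.32 and 0.85 ± 0.23 (adjusted p = 0.00200, 0.000377 and 0.00651). The shallow window lost its call with DESeq2 and without T-bet– cDC2 replicate 1 or either T-bet+ library (highest adjusted p 0.121). All 3 intronic calls were lost without T-bet– cDC2 replicate 2. The first was also lost with DESeq2 and without T-bet+ replicate 2, and the third with DESeq2, with scaling by library size only and without T-bet– replicate 1 or T-bet+ replicate 1, with adjusted p up to 0.171, 0.0872 and 0.181 in the alternatives. An intronic window 5647 bases from the outermost start was stepped across the subsets, at 20.7 and 18.4 CPM in T-bet+ cDC2s, 12.2 and 9.52 for the T-bet– subset and 4.71 and 4.25 in cDC1s. It was more open in both cDC2 subsets than in cDC1s, by 2.11 ± 0.26 (adjusted p = 2.16e-10) and 1.27 ± 0.27 (adjusted p = 0.000127). One window, 129177 bases in, went the other way, with 12.5 and 13.4 CPM in cDC1s against 5.21 to 8.33 in the 4 cDC2 libraries (log2 fold change of T-bet+ cDC2s over cDC1s -0.91 ± 0.26, adjusted p = 0.00411, and of T-bet– cDC2s over cDC1s -1.198 ± 0.27, adjusted p = 0.000310). The first of these was lost with DESeq2 and without cDC1 replicate 1 or 2 or T-bet+ cDC2 replicate 2 (highest adjusted p 0.105), and the second without T-bet– cDC2 replicate 2 (0.0155). The second of the 3 intronic windows was also less open in T-bet– cDC2s, at 3.91 and 1.80 CPM, than in cDC1s, at 6.35 and 6.70. That call was lost with DESeq2 and without cDC1 replicate 1 or 2 or T-bet– cDC2 replicate 2. In all, 22 of the 28 windows at Ncald passed no test between the cDC2 subsets. One of these, 17855 bases before the outermost start, held 3.30 and 3.21 CPM in T-bet– and 0.973 and 1.35 in T-bet+ cDC2s. Counted as a whole peak it did pass, lower in T-bet+ cDC2s (log2 fold change -1.69).

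Lyz1 (ENSMUSG00000069515.6, chr10:117287797-117292868, minus strand) was the gene with the highest level per length of the 7 in spleen T-bet– cDC2s, at 275 ± 139 RPKM (SD, n = 3). The T-bet– libraries held 550.3, 244.9 and 245.9 CPM, cDC1s 31.7, 21.7 and 25.6, and T-bet+ cDC2s 1.92, 2.199 and 1.32. No 2 subsets overlapped. Lyz1 was lower in T-bet+ than T-bet– cDC2s by a log2 fold change of -7.58 ± 0.47, lower in T-bet+ cDC2s than cDC1s by -3.83 ± 0.40, and higher in T-bet– cDC2s than cDC1s by 3.75 ± 0.39. In MLN the T-bet– libraries held 833 and 774 CPM and cDC1s 19.1, 7.36 and 6.91. The MLN T-bet+ libraries were far apart, at 4.40 and 83.8 CPM, on either side of the cDC1 libraries. Their log2 fold change over cDC1s was 1.96 ± 0.96 with both libraries and -1.30 without replicate 2, and over T-bet– cDC2s -4.25 ± 1.197 with both and -7.50 without replicate 2.

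Lyz1 and Lyz2 lie 5476 bases apart and are near copies. Over their aligned length, 1211 of 1262 aligned bases of their transcripts were identical (96.0%), and 195 of the 1214 stretches of 50 bases in Lyz1 (16.1%), the read length, occur exactly in Lyz2. Only uniquely aligned reads were counted, and how reads from such stretches were divided was not tested, so Lyz1 levels are uncertain where Lyz2 is high. Lyz2 was at 8584 ± 1873 CPM in spleen T-bet– cDC2s, 216 ± 39.6 for the T-bet+ subset and 999 ± 287 in cDC1s. It differed between all 3 pairs of spleen subsets, by log2 fold changes of -5.32 ± 0.30 (T-bet+ over T-bet– cDC2s, adjusted p = 4.43e-05), -2.19 ± 0.26 (T-bet+ cDC2s over cDC1s, adjusted p = 0.000422) and 3.14 ± 0.28 (T-bet– cDC2s over cDC1s, adjusted p = 5.88e-05). Lyz1 did not stay at 1 share of Lyz2. It came to 3.93% ± 1.23 of the Lyz2 reads in spleen T-bet– cDC2s, 2.69% ± 0.355 in cDC1s and 0.879% ± 0.365 in T-bet+ cDC2s (SD, n = 3). In MLN the share was 7.86% and 11.2% in T-bet– cDC2s, 3.58% ± 0.966 in cDC1s (n = 3), and 1.88% and 10.99% in T-bet+ cDC2s, the higher in replicate 2. Shares in cDC1s and T-bet– cDC2s overlapped in spleen, while those of T-bet+ cDC2s lay below both.

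Accessibility at Lyz1 followed another order than its RNA. A pair of overlapping windows 873 and 948 bases before its start were open in cDC1s, where Lyz1 RNA was in the middle. The nearer one held 22.4 and 32.2 CPM in cDC1s, 4.28 and 2.11 in T-bet– cDC2s and 0.973 and 0.311 in T-bet+ cDC2s. Log2 fold changes were -3.12 ± 0.29 for T-bet– cDC2s over cDC1s (adjusted p = 2.45e-14), -5.40 ± 0.36 for T-bet+ cDC2s over cDC1s (adjusted p = 2.82e-20) and -2.27 ± 0.47 for T-bet+ over T-bet– cDC2s (adjusted p = 0.000279). The last was lost with DESeq2, without T-bet– cDC2 replicate 1 and without T-bet+ cDC2 replicate 2 (highest adjusted p 0.0435). Of the 5 windows, the 2 farthest from the start were highest in T-bet– cDC2s. The deeper of them, 20472 bases before the start, was at 5.99 and 5.91 CPM against 2.47 and 3.74 in cDC1s and 1.95 and 1.87 in T-bet+ cDC2s. It passed between the cDC2 subsets (log2 fold change -1.64 ± 0.37, adjusted p = 0.000892, lost with DESeq2 at 0.0145) and not between T-bet– cDC2s and cDC1s (0.94, adjusted p = 0.0369). A window 8246 bases before the start was more open in cDC1s, at 4.94 and 6.96 CPM, than in the 4 cDC2 libraries, at 0.244 to 1.08 (adjusted p = 1.54e-07 against T-bet+ and 3.64e-08 against T-bet– cDC2s). The windows with opposite leading subsets are shown side by side:
Lyz1 window near the start, most open in cDC1s, chr10:117293667-117293816, plus strand: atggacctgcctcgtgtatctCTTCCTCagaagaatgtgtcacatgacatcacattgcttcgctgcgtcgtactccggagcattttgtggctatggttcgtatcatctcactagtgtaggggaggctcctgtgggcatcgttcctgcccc
Lyz1 distal window, most open in T-bet– cDC2s, chr10:117313266-117313415, plus strand: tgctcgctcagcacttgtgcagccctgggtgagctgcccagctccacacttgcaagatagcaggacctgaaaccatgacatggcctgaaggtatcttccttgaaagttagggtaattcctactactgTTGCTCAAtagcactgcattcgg
Capitals mark CTTCCTC, the reverse complement of the PU.1 letters GAGGAAG, in the first and TTGCTCAA, which has the C/EBP letters TTGCNNAA, in the second.

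**Figure D3:**
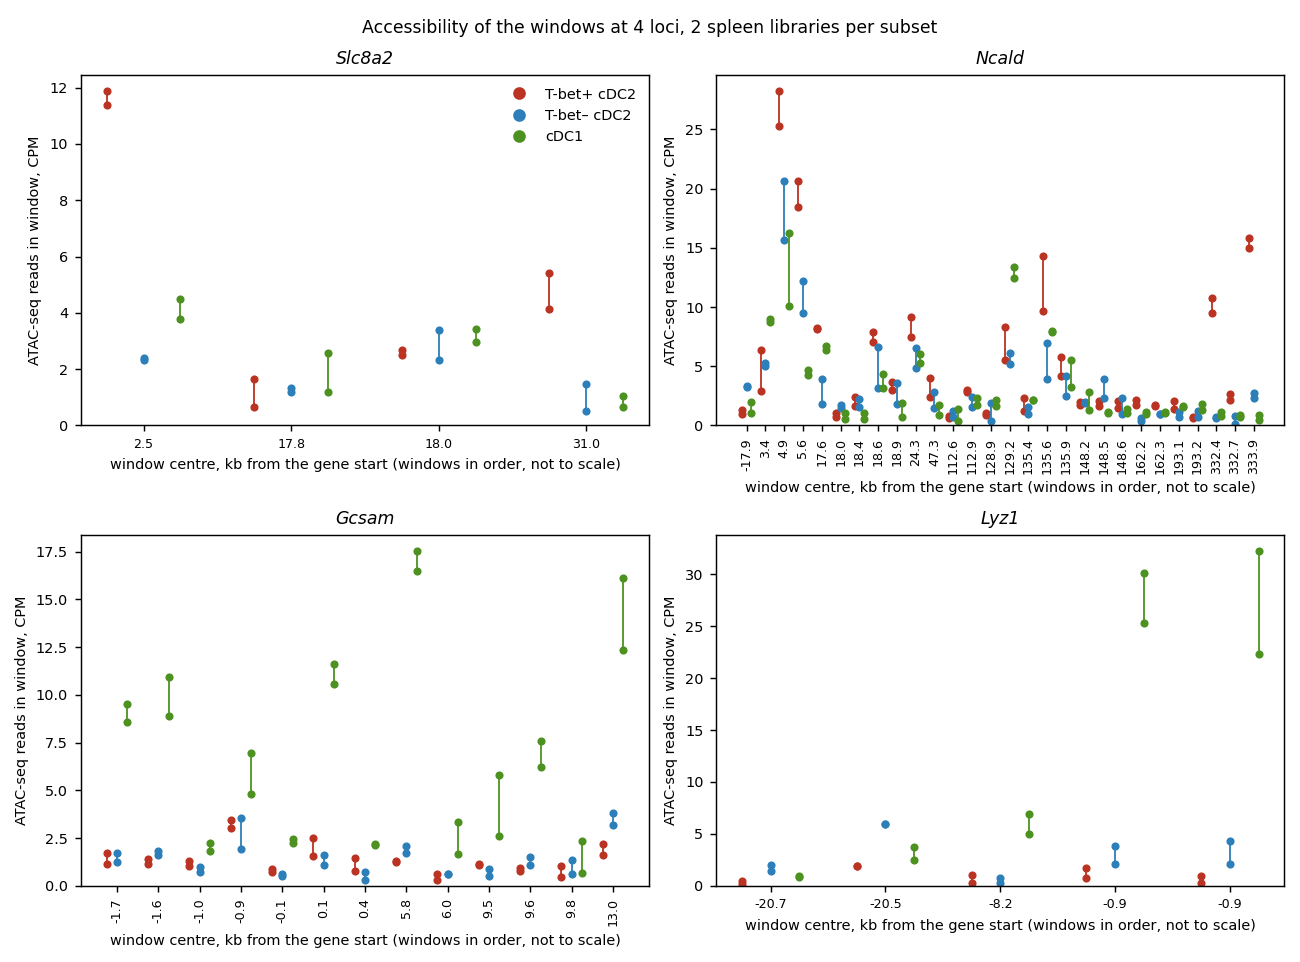
Accessibility in CPM (axis from 0) of each window at 4 loci, in order along the locus by the distance of the window's centre from the gene start in kilobases, with both spleen libraries of each subset as joined points. At Ncald the T-bet+ libraries reach 15.8 CPM at the internal starts where cDC1s are under 1 CPM, and at Lyz1 the windows before the start reach 32.2 CPM in cDC1s.

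Emilin1 (ENSMUSG00000029163.9, chr5:30913402-30921277, plus strand) was at 15.0, 7.56 and 23.5 CPM in spleen T-bet– cDC2s, 5.40, 4.05 and 4.50 in cDC1s and 0.156, 0.186 and 0 in T-bet+ cDC2s. The subsets did not overlap, although the T-bet– libraries spread widely. T-bet+ cDC2s differed from T-bet– cDC2s by a log2 fold change of -6.99 ± 0.77 and from cDC1s by -5.23 ± 0.73, and T-bet– cDC2s stood above cDC1s by 1.76 ± 0.57. In MLN the T-bet– libraries were nearly equal, at 23.0 and 23.2 CPM. T-bet+ cDC2s held 1.16 and 1.35 CPM and cDC1s 2.34, 0.609 and 0.972, so the latter pair of subsets overlapped in MLN. There T-bet– cDC2s stood above cDC1s by 4.18 ± 0.55, and T-bet+ below T-bet– cDC2s by a log2 fold change of -4.24 ± 0.65 (-4.30 without T-bet+ replicate 2). No ATAC-seq window had Emilin1 as its closest gene. The nearest peaks lay 5116 bases before it, by Ost4, and 8817 bases after it, by Khk.

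Arsi (ENSMUSG00000036412.5, chr18:60911780-60918561, plus strand) was the least abundant of the 3 genes high in T-bet– cDC2s, at 1.94 ± 1.13 RPKM in spleen against 3.11 ± 1.62 for Emilin1, which does not exceed the spread. Its T-bet– libraries held 3.60, 4.08 and 9.67 CPM, its cDC1 libraries 2.76, 0.491 and 2.33, and all 3 T-bet+ libraries 0 reads. T-bet+ cDC2s were lowest without exception, and cDC1s were below T-bet– cDC2s by a smaller margin (log2 fold change 1.68 ± 0.71). With T-bet+ cDC2s at the limit of 3 counts over the group, Arsi was at least 157-fold higher in T-bet– cDC2s and at least 46.9-fold higher in cDC1s. In MLN the T-bet+ libraries were not empty, at 0.447 and 1.19 CPM, with T-bet– cDC2s at 1.99 and 4.84 and cDC1s at 2.99, 4.18 and 3.31. T-bet+ cDC2s were again lowest, by log2 fold changes of -2.08 ± 0.64 and -2.08 ± 0.61 (-2.90 in both comparisons without T-bet+ replicate 2), and the others overlapped. Accessibility did not separate the cDC2 subsets at Arsi, where 0 of 8 tested windows passed with edgeR or DESeq2 and 1 had an unadjusted p under 0.05. The window 389 bases before the start held between 2.59 and 4.11 CPM in all 6 libraries and passed in no comparison. Upstream, 3 windows were less open in T-bet+ cDC2s than in cDC1s, at log2 fold changes of -1.278 ± 0.33, -1.42 ± 0.37 and -1.79 ± 0.45 (adjusted p = 0.00135, 0.00170 and 0.00107), and 1 of them also in T-bet– cDC2s (-1.47 ± 0.44, adjusted p = 0.00775). All 4 calls were lost with DESeq2. The first 2 were also lost without cDC1 replicate 2, the third without cDC1 replicate 1, the second and the third without T-bet+ cDC2 replicate 2, and the fourth without any 1 cDC1 or T-bet– library (highest adjusted p 0.206, 0.0378, 0.0292 and 0.102).

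Spleen T-bet– cDC2 replicate 3 held the highest Arsi, Emilin1 and Gcsam of its group, and it also differed from the other T-bet– libraries in base composition. Across 7640 genes, a gene's deviation from its mean over spleen libraries went with its GC content at a Spearman's rho of 0.27 in this library and of -0.46 and -0.30 in T-bet– replicates 1 and 2. The richest 100 bases of Arsi, Emilin1 and Slc8a2 are 75%, 72% and 77% GC, and those of Gcsam 61%. Ncald, Lyz1 and 2310031A07Rik have 71%, 60% and 52%. The part of GC content in the levels of this library was not tested. With the library's class of GC dependence as a term in the fit, the log2 fold change of Slc8a2 between T-bet+ and T-bet– cDC2s was 4.70 in place of 5.98.

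Gcsam (ENSMUSG00000022659.13, chr16:45610380-45622867, plus strand) was at 323, 337 and 452 CPM in spleen cDC1s. T-bet– cDC2s held 3.79, 3.13 and 8.18 CPM, and T-bet+ cDC2s 2 reads in 1 library (0.0782 CPM) and 0 in the other 2. No subsets overlapped. With 25257 reads in cDC1s against 2 in T-bet+ cDC2s, the ratio was 13983 (95% exact interval 3870 to 115468), and between cDC1s and T-bet– cDC2s the log2 fold change was -6.16 ± 0.52. Between T-bet– and T-bet+ cDC2s the ratio was 204 (interval 56.1 to 1693). In MLN cDC1s held 368, 149.6 and 185 CPM and T-bet– cDC2s 10.5 and 6.97. The MLN T-bet+ libraries held 0.783 and 10.2 CPM, the higher again in replicate 2, so the cDC2 subsets overlapped. T-bet+ cDC2s differed from cDC1s by a log2 fold change of -5.44 ± 1.07 with both libraries and -8.17 without replicate 2, and from T-bet– cDC2s by -0.74 ± 0.93 with both and -3.46 without it.

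The Gcsam locus was open along its length in cDC1s. Of its 13 windows, 8 were more open in cDC1s than in T-bet+ cDC2s and 10 than in T-bet– cDC2s, and 0 passed between the cDC2 subsets with edgeR or DESeq2, where 1 had an unadjusted p under 0.05. The most open lay in an intron, 5750 bases after the start, at 16.5 and 17.5 CPM in cDC1s, 2.08 and 1.704 in T-bet– cDC2s and 1.30 and 1.24 in T-bet+ cDC2s. Log2 fold changes were -3.73 ± 0.33 for T-bet+ cDC2s over cDC1s (adjusted p = 4.49e-15) and -3.17 ± 0.32 for T-bet– cDC2s over cDC1s (adjusted p = 6.01e-13). A window 108 bases after the start held 10.6 and 11.6 CPM in cDC1s and 1.10 to 2.49 in the 4 cDC2 libraries (-2.46 ± 0.34, adjusted p = 1.11e-08, and -3.05 ± 0.37, adjusted p = 2.92e-10). Beyond the 3′ end, 13013 bases from the start, cDC1s held 12.4 and 16.1 CPM and cDC2s 1.62 to 3.79. The calls of these 3 windows were kept in 12 of 12 alternative fits. Calls at 4 shallow windows, with means under 5 CPM in cDC1s, were lost without cDC1 replicate 2, and 3 of them also without T-bet– cDC2 replicate 2. With DESeq2, 6 windows in place of 8 passed against T-bet+ cDC2s, and 7 in place of 10 against T-bet– cDC2s. The intronic window is shown as the one with the widest difference at this locus:
Gcsam intronic window, chr16:45616056-45616205, plus strand: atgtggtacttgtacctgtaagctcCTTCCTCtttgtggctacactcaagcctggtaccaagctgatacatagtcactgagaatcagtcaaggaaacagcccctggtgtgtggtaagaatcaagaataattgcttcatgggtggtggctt
Capitals mark CTTCCTC, the reverse complement of the PU.1 letters GAGGAAG.

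2310031A07Rik (ENSMUSG00000097457.1, chr11:46440362-46447248, minus strand) was at 48.5, 45.4 and 49.5 CPM in spleen cDC1s, 1.04, 0.555 and 0.896 in T-bet– cDC2s and 0.352, 0.708 and 0.248 in T-bet+ cDC2s. The cDC1 libraries were tight and far above both cDC2 subsets, which overlapped each other. Log2 fold changes from cDC1s were -6.72 ± 0.45 for T-bet+ and -5.80 ± 0.43 for T-bet– cDC2s. In MLN cDC1s held 23.4, 8.23 and 11.01 CPM, T-bet– cDC2s 0.540 and 0.387, and T-bet+ cDC2s 0.410 and 1.03, with log2 fold changes from cDC1s of -4.31 ± 0.69 (-5.06 without T-bet+ replicate 2) and -4.88 ± 0.72 for T-bet+ and T-bet– cDC2s. Of its 990 exon bases, 609 (61.5%) lie in exons of Med7, a Mediator subunit gene on the opposite strand. Whether counting used strand is not given in the sources used here, so reads of both genes cannot be told apart there. Med7 itself was at 32.1 ± 9.42 CPM in spleen cDC1s, 22.8 ± 7.95 for T-bet– and 40.5 ± 7.87 for T-bet+ cDC2s and passed in no comparison, so it did not show the pattern of its neighbour. The windows at the locus did not show it either. One of 5 passed, a window 1237 bases before the start at 11.3 and 9.79 CPM in cDC1s and 6.16 and 5.18 in T-bet+ cDC2s (log2 fold change -0.90 ± 0.27, adjusted p = 0.00687), and that call was lost with DESeq2 and with any 1 of these 4 libraries left out. The window 982 bases before the start held 8.02 to 14.4 CPM across the 6 libraries and passed in no comparison.

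Genes listed here as markers of other cells moved with part of these differences in spleen. The summed level of 7 monocyte and macrophage markers was 657 to 997 CPM in T-bet– cDC2s, 389 to 469 in T-bet+ cDC2s and 77.2 to 130 in cDC1s, highest in the subset that was also highest in Lyz1, Emilin1 and Arsi. Most of it was Adgre1 and Cd14, while Fcgr1, which encodes the CD64 that the sort gated out, was at 5.30 to 7.76 CPM in T-bet– cDC2s and under 1 CPM elsewhere, and Ly6c2 at 1.45 to 5.87 CPM in all 9 libraries. The study itself counts Cd14 among the genes of T-bet– cDC2s. It reports that monocyte genes do not suffice to tell these cDC2s from monocytes, because their expression overlaps. In MLN the monocyte and macrophage list overlapped between the cDC2 subsets, at 220 to 227 CPM in T-bet– and 205 to 368 in T-bet+ cDC2s. Stromal markers, beside which Emilin1 is read, came to 6.71 to 12.3 CPM in spleen T-bet– cDC2s, 0.372 to 2.24 in T-bet+ cDC2s and 1.24 to 6.37 in cDC1s. In the T-bet– libraries they were mostly Pdgfrb at 6.40 to 8.63 CPM, with Col1a1 and Col3a1 at 0 in 1 library and at most 1.195 CPM. In MLN stromal markers were at 6.15 to 22.3 CPM in T-bet– cDC2s, 0.745 to 71.6 in T-bet+ cDC2s and 5.29 to 52.4 in cDC1s, so the subsets overlapped. B cell markers, beside which Gcsam is read, overlapped between the 3 spleen subsets as a sum. They were at 558 to 654 CPM in T-bet–, 585 to 649 in T-bet+ cDC2s and 563 to 698 in cDC1s. Most of this was Ighm, with Pax5 at 0 to 0.0504 CPM, and single genes could differ. Cd79b was at 69.9 to 108 CPM in T-bet– cDC2s against 1.87 to 4.04 in cDC1s, where Ms4a1 was at 35.5 to 79.1. In MLN the list was lower in cDC1s, at 235 to 431 CPM, than in T-bet– (516 to 663) and T-bet+ cDC2s (504 to 644). Epithelial markers, a list that holds no gene particular to Paneth cells, were at 3.48 to 11.7 CPM in spleen T-bet– and 10.8 to 13.0 in T-bet+ cDC2s and 2.28 to 2.58 in cDC1s. For the T-bet– subset, the T-bet+ subset and cDC1s in this order, neutrophil markers were at 79.4 to 124, 82.5 to 91.9 and 20.8 to 45.0 CPM. Plasma cell markers were at 9.53 to 22.1, 11.8 to 35.5 and 2.78 to 6.96 CPM, plasmacytoid DC markers at 77.2 to 125, 61.0 to 74.9 and 79.1 to 110 CPM, and T and NK cell markers at no more than 1.36 CPM. Of the DC lists, 4 markers shared by conventional DCs were at 19671 CPM or more in all 9 spleen libraries, 5 cDC2 markers at 1489 to 2944 CPM in cDC2s and 18.6 to 32.2 in cDC1s, and 7 cDC1 markers at 145 to 585 in cDC2s and 5564 to 6432 in cDC1s. The part of such cells in the results was not tested.

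Relatives and partners of the 7 genes were read from 6 lists, of which 31 genes could be tested in spleen and 40 in MLN. Of the 31 in spleen, 5 (16.1%) passed between T-bet+ and T-bet– cDC2s (edgeR, adjusted p under 0.05), all lower in T-bet+ cDC2s, beside 5.38% of all genes tested (1.95% higher and 3.44% lower in T-bet+ cDC2s). Between T-bet+ cDC2s and cDC1s 7 passed, 4 higher and 3 lower (22.6% beside 18.2%, made of 9.97% higher and 8.20% lower), and between T-bet– cDC2s and cDC1s 9, 8 higher and 1 lower (29.0% beside 15.9%, made of 9.65% higher and 6.20% lower). In MLN 0 of 40 passed between the cDC2 subsets, as did 0 (0%) of all 15298 genes by edgeR (lowest adjusted p 0.0569, 1444 at an unadjusted p under 0.05), while DESeq2 called 392 genes and 3 of the 40, namely Atp2b4, Itga9 and Lyz2. The MLN comparisons with cDC1s gave 4 of 40 for T-bet+ cDC2s (3 higher, 1 lower, beside 6.22% of all genes, 4.11% higher and 2.11% lower) and 6 for T-bet– cDC2s (5 higher, 1 lower, beside 5.79%, 4.34% higher and 1.44% lower).

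Among exchangers and calcium pumps, 2 of 4 tested in spleen were lower in T-bet+ than T-bet– cDC2s, opposite to Slc8a2. Slc8b1, the mitochondrial sodium-calcium exchanger, was a gene of cDC1s, at 604 CPM in spleen cDC1s, 103 for T-bet– and 49.0 for T-bet+ cDC2s. Its log2 fold changes were -1.08 ± 0.20 for T-bet+ over T-bet– cDC2s (adjusted p = 0.0136), -3.59 ± 0.22 for T-bet+ cDC2s over cDC1s (adjusted p = 6.37e-06) and -2.51 ± 0.21 for T-bet– cDC2s over cDC1s (adjusted p = 4.18e-05). The first was lost without T-bet– cDC2 replicate 2 or any 1 T-bet+ library (highest adjusted p 0.0770). In MLN it was again lower in both cDC2 subsets than in cDC1s (-3.05 ± 0.38, adjusted p = 0.00487, or 0.0124 without T-bet+ replicate 2, and -2.24 ± 0.37, adjusted p = 0.0133), the second lost without either T-bet– library (up to 0.102). Atp2b4, a calcium pump of the cell membrane, was at 1.04 CPM in T-bet– cDC2s, above T-bet+ cDC2s and cDC1s (adjusted p = 0.0224 and 0.0233), a low gene whose calls were lost without T-bet– cDC2 replicate 1 or 2. The first was also lost without any 1 T-bet+ library and with library class as a term, where libraries are classed by how their levels follow transcript GC content, and the second without any 1 cDC1 library and without a filter on low counts (highest adjusted p 0.126 and 0.105). Of the calcium sensors related to Ncald, 1 of 3 passed in spleen. Kcnip3, a sensor that binds potassium channels and DNA, was at 69.8 CPM in T-bet– cDC2s against 34.7 in cDC1s (log2 fold change 1.05 ± 0.21, adjusted p = 0.00867, and 0.05001 without cDC1 replicate 1) and 44.5 in T-bet+ cDC2s (adjusted p = 0.119).

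Among sulfatases and their activators, 10 could be tested in spleen. Sulf2, which trims sulfate from heparan sulfate outside the cell, was at 523 CPM in T-bet– cDC2s, 286 for the T-bet+ subset and 128 for cDC1s, and differed in all 3 comparisons (T-bet+ over T-bet– cDC2s -0.88 ± 0.19, adjusted p = 0.0303, T-bet+ cDC2s over cDC1s 1.19 ± 0.19, adjusted p = 0.00232, and T-bet– cDC2s over cDC1s 2.07 ± 0.20, adjusted p = 0.000107). The first call was lost without T-bet– cDC2 replicate 1 or 2, without any 1 T-bet+ library and with library class as a term (highest adjusted p 0.130). In MLN it was higher in both cDC2 subsets than in cDC1s by 2.52 ± 0.30 (adjusted p = 0.00371, and 0.00235 without T-bet+ replicate 2) and 3.13 ± 0.30 (adjusted p = 0.00162). Sumf2, a regulator of sulfatase activation, was higher in spleen T-bet– cDC2s than in cDC1s (0.97 ± 0.23, adjusted p = 0.0177), a call lost without any 1 cDC1 library and in 3 other fits (highest adjusted p 0.161).

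Of 7 germinal centre genes and Gcsam partners tested in spleen, 2 passed. Syk, a kinase that binds Gcsam in B cells, ran opposite to it, at 342 CPM in T-bet– cDC2s and 232 CPM for the T-bet+ subset against 86.7 in cDC1s, with log2 fold changes over cDC1s of 2.01 ± 0.28 (adjusted p = 0.00103) and 1.44 ± 0.27 (adjusted p = 0.00534) in spleen and 2.46 ± 0.24 (adjusted p = 0.00174) and 1.65 ± 0.24 (adjusted p = 0.00810, or 0.0163 without T-bet+ replicate 2) in MLN. S1pr2, a sphingosine phosphate receptor that confines germinal centre B cells, was lower in T-bet+ cDC2s, at 3.77 CPM, than in T-bet– cDC2s at 16.2 (-2.11 ± 0.41, adjusted p = 0.0184) and cDC1s at 15.9 (-2.03 ± 0.41, adjusted p = 0.00756). The first of these calls was lost without T-bet– cDC2 replicate 2 and without any 1 T-bet+ library (highest adjusted p 0.0754).

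In the EMILIN and elastic fibre list, 2 of 6 genes tested in spleen passed, both higher in the cDC2 subsets than in cDC1s. Emilin2, a relative of Emilin1, was at 104 ± 93.2 CPM in T-bet– cDC2s, 20.4 ± 8.17 for the T-bet+ subset and 2.25 ± 1.279 in cDC1s (log2 fold changes over cDC1s 5.54 ± 0.78, adjusted p = 0.00113, and 3.19 ± 0.70, adjusted p = 0.0118). Between the cDC2 subsets it did not pass (-2.36 ± 0.67, adjusted p = 0.0791), and in MLN cDC1s it was at 1 read in 3 libraries. Itga9, an integrin subunit that binds EMILIN1, was at 3.70 CPM in spleen T-bet– cDC2s and 2.07 CPM for the T-bet+ subset against 0.0441 in cDC1s (adjusted p = 0.000879 and 0.00167). Per length, Emilin1 in spleen T-bet– cDC2s, at 3.11 ± 1.62 RPKM, lay below Emilin2 at 18.9 ± 16.9, with spreads that are wide for both. Of the lysozyme list Lyz2 alone could be tested.

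The nearest protein-coding gene on each side of the 7 was read next, a choice made after the windows were seen. Meis3, a homeobox gene 14027 bases beyond Slc8a2, was at 24.9 ± 6.24 CPM in spleen T-bet+ cDC2s, 3.72 ± 2.48 for the T-bet– subset and 1.87 ± 0.887 in cDC1s, higher in T-bet+ cDC2s in both comparisons (2.73 ± 0.57, adjusted p = 0.0248, and 3.74 ± 0.60, adjusted p = 0.00216). The first was lost without T-bet– cDC2 replicate 1 or 2 or any 1 T-bet+ library (highest adjusted p 0.0848). In MLN Meis3 was at 4.42 ± 1.87 CPM in T-bet+ cDC2s (n = 2) and passed in no comparison. Kptn, 2310 bases before Slc8a2, was higher in T-bet+ cDC2s than cDC1s (64.4 against 25.9 CPM, 1.34 ± 0.21, adjusted p = 0.00177) and did not pass between the cDC2 subsets (adjusted p = 0.0671). Camk2a, a calcium and calmodulin dependent kinase 7057 bases beyond Arsi, was at 6.46 ± 3.25 CPM in spleen T-bet– cDC2s, 2.21 ± 0.267 for the T-bet+ subset and 0.388 ± 0.331 in cDC1s, and both cDC2 subsets were above cDC1s (4.12 ± 0.68, adjusted p = 0.00293, and 2.56 ± 0.66, adjusted p = 0.0232), the second lost without cDC1 replicate 1 or 2 or any 1 T-bet+ library (highest 0.0979) and with the replicate number as a block (adjusted p = 0.0577). In MLN Camk2a was higher in T-bet– cDC2s than cDC1s (3.37 ± 0.70, adjusted p = 0.0321), a call lost without cDC1 replicate 2 or 3 or either T-bet– library (up to 0.225). Arsi differs from it in T-bet+ cDC2s, where it had no read. Khk, 154 bases beyond Emilin1, was lower in T-bet+ cDC2s than in cDC1s (32.6 against 67.3 CPM, -1.02 ± 0.28, adjusted p = 0.0334), a call lost without cDC1 replicate 1 or 3 or any 1 T-bet+ library (highest 0.116) and with the replicate number as a block (adjusted p = 0.0718). Havcr2, which encodes TIM-3 and lies 7687 bases beyond 2310031A07Rik, was at 842 ± 169 CPM in spleen cDC1s against 447 ± 96.8 and 438 ± 167 for T-bet+ and T-bet– cDC2s, and did not pass (adjusted p = 0.0662 and 0.0674). Grhl2, Rrm2b, Tcof1, Ost4 and Cpsf6 passed in no comparison, and Slc9c1 and BC016579 were too low to test in spleen. In MLN BC016579 passed for T-bet+ cDC2s against cDC1s (adjusted p = 0.0284), a call lost with only the compared subsets fitted and without cDC1 replicate 2 or 3, T-bet– replicate 1 or 2 or T-bet+ replicate 1 (up to 0.105).

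**Figure D4:**
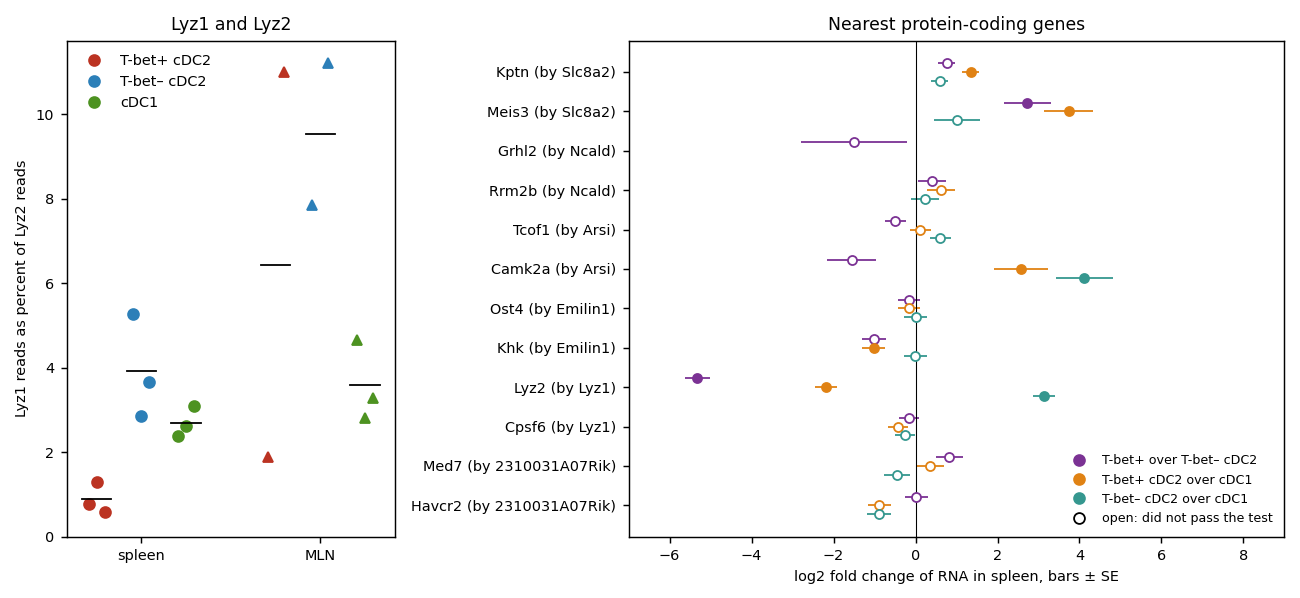
Left, Lyz1 reads as a percent of Lyz2 reads in each of the 16 libraries (circles spleen, triangles MLN, lines group means): the 3 spleen T-bet+ libraries lie lowest, at 0.577% to 1.284%. Right, log2 fold change of RNA in spleen with its SE for the nearest protein-coding gene on each side of the 7 genes that could be tested, filled where the test passed, with Grhl2 left out against cDC1s, which held 0 of its reads: Meis3 lies at 2.73 and 3.74 in the T-bet+ cDC2 comparisons.

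The genes most like each of the 7 over the 16 RNA libraries were found by the smallest root mean square difference of centred log2 levels. They share the libraries and the scale with the gene they were matched to, and likeness was not tested. For Slc8a2 they were Slc27a2, a fatty acid transporter (difference 0.44), Hoxc4 (0.56) and Cmya5 (0.81), all at 0.0273 CPM or less in spleen cDC1s. For Ncald they were Slc8a2 itself (1.08), Slc27a2 (1.10) and Mid2 (1.2). Those of Arsi were Klrk1 (1.05), Myof (1.10) and Map3k15 (1.12), which are lowest in T-bet+ cDC2s of both tissues. For Emilin1 they included Lyz2 (1.13) and P2ry12 (1.17), and for Lyz1 they were P2ry13 (1.11), Lyz2 (1.15) and Emilin1 (1.2). P2ry12 and P2ry13 encode purine receptors. P2ry13 was at 60.0 ± 22.4 CPM in spleen T-bet– cDC2s, 2.57 ± 1.73 in cDC1s and 1.07 ± 1.09 in T-bet+ cDC2s. Gcsam went with Clec9a (1.00), the cDC1 receptor for dead cells, Ifi205 (1.13) and Rab7b (1.25). The 3 nearest to 2310031A07Rik were Hepacam2 (0.47), RP23-410L16.4 (0.59) and Naaa (0.63), with Naaa at 2958 ± 166 CPM in spleen cDC1s against 34.0 ± 5.21 for T-bet+ and 113 ± 36.2 for T-bet– cDC2s. By Spearman's rank correlation over the same 16 libraries other genes came first for each, Phc1 for Ncald (rho 0.94) and Stt3a for 2310031A07Rik (rho 0.97) among them.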

How the data were processed

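The authors sorted CD11c+ MHCII+ cells without Ly6C, CD64 or lineage markers. Subsets are named as the labels name them. RNA was amplified with a SMART-Seq kit and read as 50-base pairs. They aligned reads with HISAT2 2.1.0 to GRCm38, kept unique reads with SAMtools 1.9 and deposited raw counts per gene from Rsubread on GENCODE release 17 for mouse. ATAC-seq reads were aligned with Bowtie2 2.2.5 and shifted for the transposase, peaks were called with MACS2 2.1.1.20160309 over all replicates together, and the authors deposited read counts in 150-base windows around summits and in peaks. Whether gene counting used strand is not given in the sources used here.

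The 7 genes, the gene lists and the markers were chosen with earlier results of these data known. The neighbouring genes, the Lyz2 windows and the 5 motifs were chosen after the window values were seen. The named genes were the 7 genes, the 3 genes nearest to each in centred log2 CPM over 16 libraries, of each of 6 family lists the genes that passed in any comparison, up to the 4 with the smallest p, Lyz2, and Tbx21, Xcr1 and Sirpa as checks of the sort. One gene that this rule names is not reported here. Marker lists covered cDC1, cDC2, cDC, T-bet, B cell, monocyte and macrophage, neutrophil, T and NK cell, plasma cell, plasmacytoid DC, stromal cell, and epithelial cell.

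Counts were fitted with edgeR 4.0.16 in R 4.3.3 (quasi-likelihood test, TMM scaling, low counts filtered, Benjamini-Hochberg adjustment over all 14377 spleen genes, 15298 MLN genes or 166547 windows tested), 1 fit per tissue and assay with subset as the only term. RNA calls needed an adjusted p under 0.05, window calls an adjusted p under 0.01 and a log2 fold change beyond 0.5. CPM uses TMM-scaled library sizes. Gene positions and lengths came from GENCODE release 21 for mouse on GRCm38. DESeq2 1.42.0, other scalings, filters, thresholds and each library left out were tried as alternatives. In simulated data with 200 changed features, the fits recovered 177 of 200 genes changed 8-fold in spleen (11 false calls), 172 in MLN (4) and 196 windows changed 4-fold (1). The changed features were drawn only from well-covered genes and windows, so these rates do not apply to shallow windows or low genes. No 2 libraries were identical. Same-numbered spleen libraries of T-bet+ cDC2s and cDC1s deviated together in all 3 pairs (correlations 0.17, 0.13 and 0.11), a hint of pairing from the data and not from the labels. The main fits did not use this pairing, so their p-values are unpaired. A fit with the replicate number as a block was run as an alternative. RNA sequencing was done once, so p-values measure the spread between these pools. Intervals cover counting error only, since reads were summed over the libraries of a group, and leave out the spread between libraries. Reads carried no molecular identifiers, so amplified copies of the same molecule were not told apart and the intervals may be too narrow.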

Additional observations from a re-analysis of the deposited data

How the results depend on the processing

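With DESeq2 in place of edgeR, the list genes called between spleen T-bet+ and T-bet– cDC2s went from 5 to 11, in MLN from 0 to 3 between the cDC2 subsets and from 4 to 9 for T-bet+ cDC2s over cDC1s, and the windows called between the cDC2 subsets from 10 to 4. Without a filter on low counts the same 3 gene counts were 8, 5 and 9, and with a threshold of 0.01 the spleen count was 1. With whole peaks, 11 of 38 (28.9%) passed for T-bet– cDC2s over cDC1s, which did not exceed the 30.6% of all peaks. The windows had stood above all windows in this comparison, at 28.6% beside 17.9%. Between the cDC2 subsets 10 of 38 peaks passed (26.3% beside 12.9% of all peaks), and for T-bet+ cDC2s over cDC1s 17 (44.7% beside 36.4%). Leaving out 1 library gave 1 to 8 list genes between the spleen cDC2 subsets (1 without T-bet– replicate 2 or any 1 T-bet+ library, 8 without T-bet– replicate 3), 7 to 9 for T-bet+ cDC2s and 6 to 12 for T-bet– cDC2s over cDC1s, and in MLN 0, 3 to 6 and 4 to 6. It gave 6 to 10 windows between the cDC2 subsets (6 without T-bet– replicate 2), 16 to 24 and 12 to 20. Lyz1 in MLN T-bet+ cDC2s over cDC1s, at 1.96 on the log2 scale, ranged from -1.30 without T-bet+ replicate 2 to 2.90 without T-bet+ replicate 1. The cause of these shifts was not tested. Of the alternative values for log2 fold changes of the 7 genes, 581 moved by less than the replicate spread, 35 by more and 1, that of Lyz1, reversed among folds beyond 1 on the log2 scale. In all 16 changed sign, the other 15 from main values within 1 of 0, all in MLN: T-bet+ over T-bet– cDC2s for Gcsam (-0.74 to 0.22) and 2310031A07Rik (0.57 to -0.17), T-bet+ cDC2s over cDC1s for Emilin1 (-0.06 to 0.69) and T-bet– cDC2s over cDC1s for Arsi (0.01 to -0.74). Of those for called windows 530 kept and 70 lost the call. Beside the hint of pairing between spleen T-bet+ cDC2s and cDC1s, same-numbered T-bet+ and cDC1 libraries of MLN correlated at 0.41 and 0.34. These MLN values rest on only 2 pairs. The other pairs correlated at -0.48 to 0.09, and so few libraries cannot decide whether the numbers pair those samples. With the replicate number as a block 7 list genes passed for spleen T-bet+ cDC2s over cDC1s, 1 passed between the spleen cDC2 subsets, and with the number in the library name as the block 1, 12 and 11 passed in the MLN comparisons. At 2 ATAC libraries a subset and 1 to 3 CPM in many windows, smaller differences were not detectable.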

Other observations

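Windows closest to Lyz2 were read beside those of Lyz1, a choice made after the Lyz1 windows were seen. The window at the Lyz2 start, 17 bases upstream, was most open in the subset with the most Lyz2 RNA, with means of 14.0 CPM in T-bet– cDC2s, against 7.37 for the T-bet+ subset and 7.87 for cDC1s. It was less open in T-bet+ than T-bet– cDC2s (log2 fold change -0.93 ± 0.25, edgeR adjusted p = 0.00595) and more open in T-bet– cDC2s than cDC1s (0.83 ± 0.25, adjusted p = 0.00790), and both calls were lost with DESeq2 and without either T-bet– library, the first also without either T-bet+ library and the second without either cDC1 library (adjusted p up to 0.0543 and 0.0638). A window 2804 bases before the Lyz2 start had the other order, as the windows near the Lyz1 start did. Its means were 13.1 CPM in cDC1s, 6.30 for the T-bet– subset and 2.54 for the T-bet+ subset. T-bet+ cDC2s over cDC1s gave a log2 fold change of -2.36 ± 0.30 (adjusted p = 1.56e-09, kept in 12 of 12 alternative fits), and T-bet– cDC2s over cDC1s -1.06 ± 0.27 (adjusted p = 0.00171, lost with DESeq2 and without cDC1 replicate 2 or T-bet– cDC2 replicate 2, at up to 0.0821).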
